A study of Drosophila pseudoobscura with 29 samples.

Results

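Promoter activity in embryos of Drosophila pseudoobscura aged 6-9 h was compared with that in embryos aged 9-12 h after egg laying. The 6 libraries of this comparison are the windows 6-7 h, 7-8 h and 8-9 h on the younger side and 9-10 h, 10-11 h and 11-12 h on the older side, chosen by their age labels out of 29 windows of 1 hour that cover 0-29 h. All came from untreated whole embryos of the wild-type reference genome strain, collected in population cages and then aged, so the groups differ in age alone among the labelled properties. Each window is 1 barcoded sample, called a library below. The paper states that the samples of a series were barcoded at reverse transcription and then pooled into 1 sequencing library. There are no replicate collections. The 3 windows of a side therefore stand in for replicates, and every p-value here measures a difference against the spread between neighbouring windows, a spread that itself contains development within the side.

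The assay was RAMPAGE, which captures cDNA complete at the capped 5′ end of transcripts, so that the first base of a read marks where transcription began. Neighbouring start sites are grouped into transcription start site clusters (TSCs), each standing for a promoter. A gene may use several promoters, which can be switched on at different ages and give transcripts with different first exons. In fly embryos the first hours run largely on RNA supplied by the mother, the middle of embryogenesis sees the body plan laid out and organs begin to form, and the later hours are marked by cell differentiation and the making of the cuticle. Hours after egg laying are not developmental stages, and no stage was given for these windows. In whole embryos, fewer cells of a type and less RNA per cell cannot be told apart. The assay counts RNA present in a window, so RNA made then and RNA kept from earlier cannot be told apart either.

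The 6 libraries held between 2062173 and 8853725 reads in TSCs, with the fewest at 11-12 h, and between 18906 and 22745 of 26066 TSCs had a read. A TSC with no read may have escaped counting at a level of up to 3 reads, equal to 0.339 RPM (reads per 1000000 reads) in the 6-7 h library and 1.45 RPM in the 11-12 h library. The paper does not state whether repeated copies of a molecule were removed from the reads, so such limits cover counting error only. Neighbouring windows resembled each other closely, with Pearson correlations of log2(RPM + 1) across TSCs of 0.953 to 0.967, and the step across the 9 h boundary was no exception at 0.967. Windows within 6-9 h correlated at 0.953 to 0.962, windows within 9-12 h at 0.945 to 0.967, and pairs across the boundary at 0.891 to 0.967. TSCs are not independent replicates, and these coefficients only describe the libraries. The gene identifiers of the tables are not paired with gene names in the sources used here, so promoters are given below by their position in the FlyBase r2.9 assembly and no functional group of genes was counted.

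One feature of the libraries varied between the windows, with the sides overlapping. The 779 TSCs that reach 10 RPM and have at least 95% of their summed RPM in windows from 18 h on had together 967 RPM at 6-7 h, 288 RPM at 7-8 h and 139.9 RPM at 8-9 h. In 9-12 h the same TSCs summed to 564, 1375 and 1388 RPM. The level was therefore high in the youngest window of the comparison and in its oldest pair, and it was 63.6 RPM at 5-6 h and 357 RPM at 12-13 h. These promoters made up 30.8% of the signal at their highest window, 23-24 h. Of the 779, 200 passed the filter on low values and were tested. Among these 200, 4 were called higher (2.00%, against 4.66% of all TSCs tested) and none lower, and their part in the other results was not tested. The 81 TSCs used mostly at 0-3 h (at least 80% of their RPM) fell within 139.7 to 541 RPM over the 6 windows. Of these, 57 were tested and limma called none of the 57, against 5.48% of all TSCs tested.

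More promoters rose than fell in RPM between 6-9 h and 9-12 h. Of 17834 TSCs with at least 1 RPM in some window, 831 were called higher in 9-12 h (4.66%) and 147 lower (0.824%), together 978 (5.48%), by limma on log2(RPM + 1) at a Benjamini-Hochberg adjusted p of at most 0.05. At an unadjusted p under 0.05 there were 3916. The 831 risers had a median change of +1.87 on the log2 scale, 3.65-fold, and the 147 fallers a median of -1.59. All values are changes of log2(RPM + 1), which understates the change of weak promoters. The median TSC was itself 0.14 higher in 9-12 h, so that relative to it the medians of risers and fallers were +1.73 and -1.73. Scaling by TMM factors removed that shift and changed the split to 490 higher and 186 lower. Upper-quartile scaling gave 464 higher and 188 lower.

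The counts depended most on the windows that do not touch the 9 h boundary. Each run that leaves out a window also tests with fewer windows, and the part of this in the counts was not tested. Without the 10-11 h library limma called 10 TSCs, and without the 11-12 h library 3, with 2694 and 3085 at an unadjusted p under 0.05. Leaving out 6-7 h or 7-8 h left 331 or 266 TSCs. Leaving out 8-9 h gave 914 TSCs, and leaving out 9-10 h, the older window nearest the boundary, gave 1418. With the reads of every window thinned to the smallest library, 646 TSCs were called.

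Every one of the 831 risers had its lowest 9-12 h window above its highest 6-9 h window, as did 19.6% of all TSCs tested. Of the 147 fallers, 146 showed the reverse order, which 8.46% of all TSCs tested also did. A steady course was less common. Among the risers 191 rose at each of the 5 steps between the 6 windows (23.0%, against 2.39% of all TSCs tested). Of the fallers, 25 fell at each step (17.0%, against 0.712%). The calls were made on these same values, so the order of the sides and the steady courses are partly given by the call. The median riser had 1.92, 2.88 and 4.02 RPM in the younger windows and 9.74, 16.8 and 20.4 RPM in the older ones. For the fallers the medians were 21.3, 17.7 and 12.9 RPM, then 6.09, 4.31 and 2.91 RPM. Only 3 risers had no read at all on the younger side and no faller had none on the older side. The calls were thus changes of level, apart from those 3, for promoters with reads on both sides.

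The change from one window to the next was spread over the whole 6 hours, with a surplus of gains at the boundary. Of the 8101 TSCs reaching 10 RPM, 774 rose and 187 fell by at least 2-fold from 8-9 h to 9-10 h. The preceding steps had 673 up and 757 down from 6-7 h to 7-8 h, and 614 up and 437 down from 7-8 h to 8-9 h. After the boundary there were 409 up and 337 down, then 359 up and 464 down. The boundary step thus had the most gains and the fewest losses of the 5 steps, while its typical size was the smallest, with a median absolute step of 0.32 on the log2 scale against 0.34 to 0.44 at the others. The steps were counted on RPM without further scaling, and the median TSC itself moved by 0.12 at the boundary step, against -0.01 to 0.04 at the others. The TMM factor of the TSCs was 0.942 at 8-9 h and 1.04 at 9-10 h. The 9-10 h library is also among the deepest of the 6. The part of this shift and of depth in these counts was not tested.

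**Figure D1:**
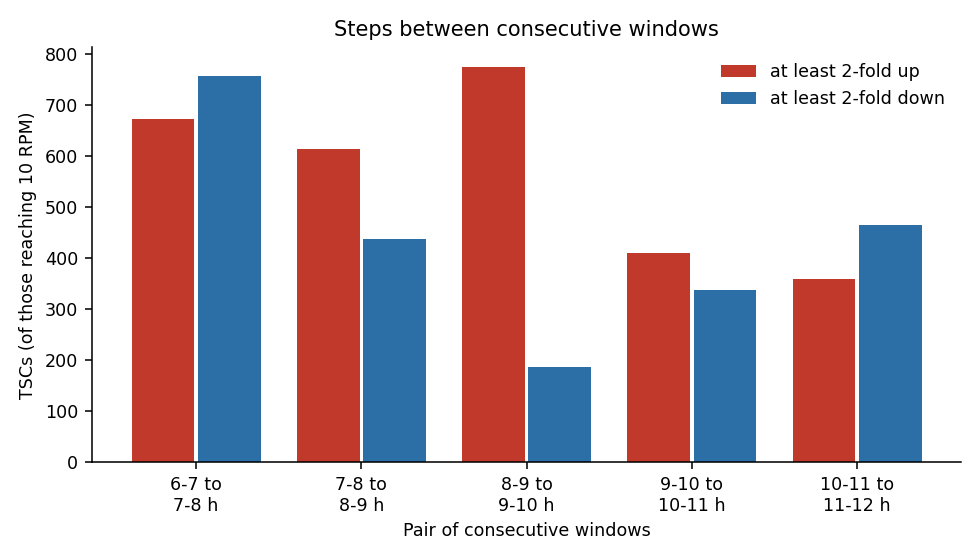
Number of TSCs, of 8101 reaching 10 RPM in the 6 windows, whose log2(RPM + 1) rose (red) or fell (blue) by at least 2-fold between consecutive windows, 1 pair of bars per step and no error bars since each window is 1 library. The step from 8-9 h to 9-10 h has the tallest red bar (774) and the shortest blue bar (187).

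The largest gain among promoters reaching 10 RPM was on chromosome 3 at 9362264-9362405, plus strand. It had 28.2, 6.87 and 9.64 RPM in the windows of 6-9 h and 155, 244 and 262 RPM in those of 9-12 h, a change of +4.00 ± 0.44 (SE, limma adjusted p = 0.00339). The sides were far apart, and RNA from this promoter was already present early, with its highest window of the series at 1-2 h (764 RPM). Whether that early RNA was made by the embryo or supplied by the mother was not tested. The RPM of the promoter thus had an early high, a low in 6-9 h and a return.

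The second largest gain belonged to a gene on chromosome 3 that had another of its promoters among the 10 largest, 1604 bp away on the minus strand. The upstream one, at 8318344-8318545, gave 2.71, 2.22 and 3.70 RPM and then 25.7, 65.6 and 61.1 RPM (+3.65 ± 0.39, limma adjusted p = 0.00339). The downstream one, at 8316740-8317290, gave 4.63, 4.21 and 7.23 RPM and then 46.0, 70.4 and 53.8 RPM (+3.19 ± 0.31, limma adjusted p = 0.00339). They moved in parallel here and were highest much later, the first at 21-22 h with 724 RPM and the second at 25-26 h with 1458 RPM.

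Among the 10 largest gains, the highest levels within the 6 windows were at a promoter on scaffold XR_group8 at 787077-787246, plus strand. Its level was 183, 301 and 265 RPM in 6-9 h and 1445, 1843 and 3538 RPM in 9-12 h (+3.10 ± 0.33, limma adjusted p = 0.00339), and it went on to 10545 RPM at 14-15 h. A promoter on XL_group1e at 4089607-4089910, minus strand, had 30.04, 50.1 and 41.4 RPM and then 271, 414 and 446 RPM, with the smallest error of these 10 (+3.18 ± 0.29). It was close to its highest level already, which it reached at 12-13 h with 515 RPM.

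The gains were not all smooth. On chromosome 2 at 24848808-24849010, minus strand, the windows read 1.36, 3.33 and 15.4 RPM and then 62.9, 21.8 and 146 RPM, so that the 10-11 h window stood below its neighbours (+3.44 ± 0.72, limma adjusted p = 0.0250). Its highest window of the series was 19-20 h, with 17169 RPM. A promoter on 4_group3 at 9162181-9162220, plus strand, by contrast reached 28.7, 44.8 and 53.3 RPM from 2.60, 6.65 and 1.45 RPM (+3.37 ± 0.43), and its highest window, 16-17 h, was barely higher at 59.4 RPM.

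The largest loss was on chromosome 2 at 5438685-5438784, minus strand. The promoter had 2422, 1239 and 1006 RPM in 6-9 h and 307, 55.8 and 23.8 RPM in 9-12 h, a fall at each of the 5 steps (-4.26 ± 0.70, limma adjusted p = 0.0118). Its highest window was 4-5 h at 7156 RPM, and by 12-13 h it was at 3.54 RPM. A second promoter of chromosome 2, at 8302717-8302882 on the plus strand, also fell at each step, from 236, 55.0 and 27.6 RPM to 6.82, 1.92 and 1.45 RPM (-4.24 ± 0.67, limma adjusted p = 0.0113).

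Other losses started later or were less even. The promoter on XL_group1a at 5993181-5993341, minus strand, was still climbing through 6-9 h, with 18.3, 45.9 and 56.4 RPM, and dropped to 12.9, 1.68 and 0.485 RPM in 9-12 h (-3.29 ± 0.70, limma adjusted p = 0.0253). This was a burst with its top at 8-9 h, the last window before the boundary. On XR_group8 at 2657640-2657720, plus strand, 13.7, 13.3 and 7.71 RPM were followed by 1.46 RPM and then no read in either of the last windows (-3.18 ± 0.43). That promoter returned later, with a highest window of 56.6 RPM at 25-26 h. On chromosome 3 at 15948053-15948164, minus strand, the level was 185, 133 and 76.3 RPM and then 4.87, 31.4 and 13.1 RPM, so the lowest value was at 9-10 h and not at the end (-3.16 ± 0.53).

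**Figure D2:**
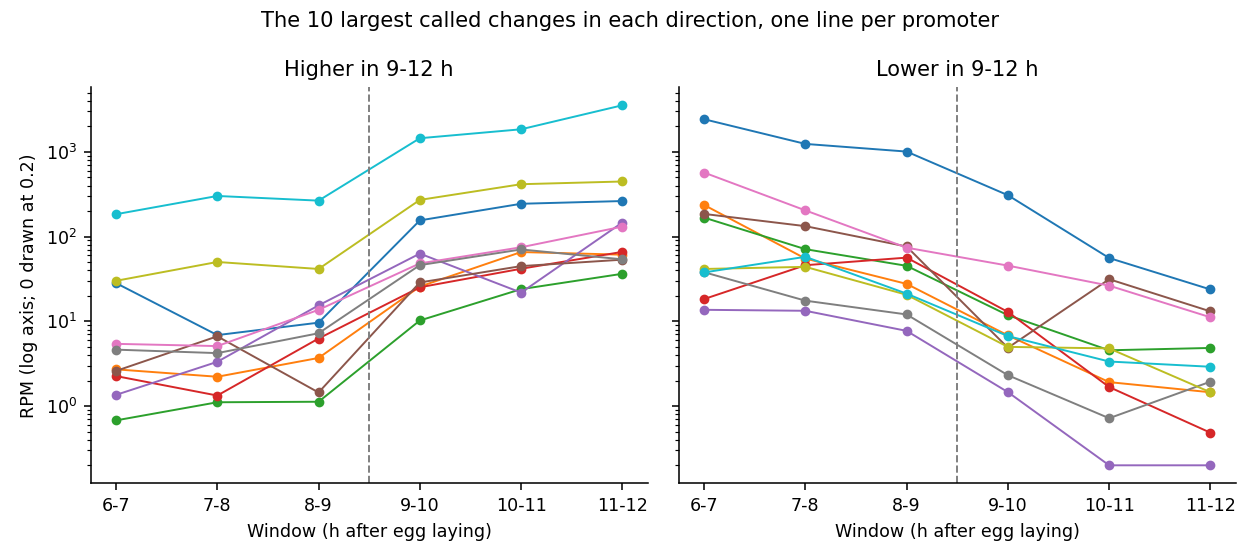
RPM on a log axis in the 6 windows for the 10 promoters with the largest called gain (left) and the 10 with the largest called loss (right) among those reaching 10 RPM with no overlap between the sides. Each line is a promoter, each point 1 library, a value of 0 is drawn at 0.2 RPM and the dashed line marks 9 h. The top line on the left climbs to 3538 RPM and the top line on the right falls from 2422 to 23.8 RPM.

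At the level of genes, where reads of a gene's promoters were summed by the authors, 313 of 7226 genes were called higher in 9-12 h (4.33%) and 38 lower (0.526%), together 351 (4.86%), with 1689 at an unadjusted p under 0.05. The risers had a median change of +1.91 and the fallers one of -1.61, while the median gene was 0.12 higher. The median of the highest value was 29.9 RPM among the genes called higher and 120.1 RPM among those called lower. Here too limma called no gene without 10-11 h or without 11-12 h, with 1170 and 1228 at an unadjusted p under 0.05, and 10 or 8 genes without 6-7 h or 7-8 h. Leaving out 9-10 h gave 653 genes. The recovered-read tests gave 175 genes by edgeR and 723 by DESeq2.

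The gene with the largest gain was FBgn0000562, with 17.8, 4.62 and 8.44 RPM in 6-9 h and 87.2, 128 and 135 RPM in 9-12 h (+3.54 ± 0.42, limma adjusted p = 0.0206). FBgn0037937 followed with 0.671, 1.10 and 1.11 RPM and then 10.1, 23.7 and 36.0 RPM (+3.47 ± 0.43, limma adjusted p = 0.0206). Its reads came from a single promoter 20 bp wide on chromosome 2, at 25847123-25847142 on the plus strand, and 11-12 h was its highest window in the whole series. The largest loss belonged to FBgn0038028, whose only promoter is the one on chromosome 2 at 5438685-5438784 described above (2399, 1229 and 997 RPM, then 305, 55.3 and 23.5 RPM, -4.26 ± 0.79, limma adjusted p = 0.0288). FBgn0003411 came second, with 166, 70.4 and 44.7 RPM and then 11.7, 4.51 and 4.80 RPM from the promoter on XL_group1e at 3221569-3221692, plus strand (-3.46 ± 0.50, limma adjusted p = 0.0220). For all 4 genes the sides did not overlap, which the rule for naming genes required.

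Promoters to which the TSC table assigns no gene took part as well. Of 4358 such TSCs tested, 155 were called higher (3.56%) and 26 lower (0.597%), against 676 (5.02%) and 121 (0.898%) of the 13476 TSCs assigned to a gene. Unassigned promoters were narrower as a class, with a median width of 35 bp against 86 bp, and the difference in called shares was not tested. Among the 155 unassigned risers the median width was 72 bp. A TSC of a gene lay within 1000 bp of 24 of these 155 (15.5%), compared with 40.1% of all unassigned TSCs tested, and in 4 of the 24 cases that neighbour was called higher too (16.7%, against 4.35% of such neighbours over all unassigned TSCs tested). The difference between these shares was not tested.

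The largest unassigned gain was on chromosome 3 at 6951129-6951255, minus strand. It had 9.15, 33.9 and 34.4 RPM in 6-9 h and 85.9, 173 and 371 RPM in 9-12 h (+2.94 ± 0.56, limma adjusted p = 0.0180), on the way to 1070.2 RPM at 13-14 h. A gene among the 10 largest gene gains had nearly the same values. They were 9.40, 34.6 and 34.7 RPM, then 86.6, 177 and 375 RPM, with 1073.6 RPM at 13-14 h. This TSC may thus be counted in that gene at the gene level, which was not tested, and the 2 gains may not be separate. On XR_group5 at 552297-552559, minus strand, the windows gave 11.1, 20.8 and 35.8 RPM and then 97.4, 155 and 171 RPM, a rise at each step (+2.70 ± 0.40, limma adjusted p = 0.0110). These were the strongest of the 5 largest unassigned gains in the older windows.

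The other 3 of the 5 largest unassigned gains were weaker. The promoter on XR_group8 at 610597-610749, minus strand, went from 2.82, 12.0 and 5.46 RPM to 18.3, 66.4 and 65.0 RPM (+2.69 ± 0.54). The one on chromosome 3 at 3203741-3203782, minus strand, went from 2.71, 6.43 and 6.10 RPM to 22.5, 46.2 and 43.2 RPM (+2.66 ± 0.39), and no window of the series was higher than its 10-11 h value. The one on XR_group6 at 7810696-7810729, minus strand, went from 1.47, 1.11 and 4.18 RPM to 9.50, 24.4 and 23.8 RPM (+2.65 ± 0.46). All 3 had limma adjusted p-values between 0.0109 and 0.0214.

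The 5 largest unassigned losses had limma adjusted p-values between 0.0245 and 0.0441. The largest, on XL_group1a at 5953096-5953186, plus strand, had 26.7, 39.9 and 15.9 RPM and then 13.6, 3.11 and 0.970 RPM (-2.44 ± 0.62, limma adjusted p = 0.0441), so its 8-9 h and 9-10 h values were close. On 4_group4 at 6165154-6165212, minus strand, 10.7, 11.1 and 5.62 RPM were followed by 2.19 and 1.68 RPM and then no read (-2.26 ± 0.47, limma adjusted p = 0.0245). The remaining 3 of the 5 largest had changes between -2.33 and -2.31, and 2 of them lay on unplaced scaffolds in TSCs of 7 and 8 bp.

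Called promoters were found on every chromosome arm, and differences between the arms were not tested. The share called higher was 4.25% on chromosome 2, 5.29% on chromosome 3, 5.07% on chromosome 4, 4.14% on XL, 5.22% on XR and 2.74% on scaffolds that are not placed. The share called lower was 0.854%, 0.707%, 1.12%, 0.570%, 0.711% and 1.48% in the same order. These shares are a description of the promoters, which are neighbours along the chromosomes and not replicates.

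Called promoters also differed in width, the span of start sites in a cluster. Risers had a median width of 90 bp, fallers one of 65 bp and TSCs that were not called one of 76 bp. By width class, 2.26% of TSCs of 1-20 bp were called higher, 6.27% of those of 21-50 bp, 3.28% of those of 51-100 bp, 6.00% of those of 101-200 bp and 5.99% of those over 200 bp. The class of 51-100 bp thus sat lower than both of its neighbours. The median change over all TSCs of the class followed the same order at that point, being 0.05 there and 0.21 and 0.16 in the neighbouring classes. Width moved with level, from a median of 26 bp in TSCs with a maximum of 1-3 RPM to 129 bp in those over 100 RPM. Risers were narrower than all tested TSCs at 3-10 RPM (52.5 against 67 bp), 10-30 RPM (86.5 against 88 bp) and 30-100 RPM (91 against 102 bp). They were wider at 1-3 RPM (44 against 26 bp) and over 100 RPM (139 against 129 bp). The part of level in the widths and shares was not tested. By level, the share called higher ran from 0.310% at 1-3 RPM to 8.71% at 10-30 RPM and was 5.43% over 100 RPM.

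A gene can gain one promoter while losing another. Of 8520 genes with a tested TSC, 2872 had at least 2, and in 354 of these (12.3%) at least 1 was called. Of single TSCs assigned to a gene, 5.02% were called higher and 0.898% lower. A gene with several TSCs has more chances of a call, so the shares are not alike. The counts of genes given here were not set against an expected number. In 22 of the 354 every tested TSC was called in the same direction, 55 had at least 2 promoters called higher and 5 had at least 2 called lower. In 6 genes promoters were called in opposite directions, and in 3 of the 6 both promoters reached 10 RPM. This count is fragile, since it was 0 without 6-7 h, 7-8 h, 10-11 h or 11-12 h and 18 with the start hour as a linear term.

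The clearest of the 3 lay on chromosome 2, plus strand, with promoters 3166 bp apart. The upstream promoter at 10029719-10029784 had 42.5, 45.9 and 26.7 RPM in 6-9 h and 20.7, 12.7 and 13.6 RPM in 9-12 h (-1.23 ± 0.32, limma adjusted p = 0.0487). The downstream promoter at 10032885-10032915 had 2.48, 4.21 and 6.10 RPM and then 15.3, 36.9 and 53.3 RPM (+2.68 ± 0.45, limma adjusted p = 0.0126). Of the RPM of the pair, the downstream promoter held 5.53%, 8.41% and 18.6% in the younger windows and 42.6%, 74.4% and 79.7% in the older ones. The upstream promoter was thus the main one before 9 h and the minor one by 10-11 h.

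In the second gene, on the minus strand of chromosome 3, the upstream promoter at 11013308-11013345 went from 354, 393 and 342 RPM to 206, 172 and 170.2 RPM (-0.99 ± 0.23, limma adjusted p = 0.0340). Its downstream promoter at 11012213-11012272 went from 4.74, 5.32 and 6.10 RPM to 13.6, 15.8 and 15.0 RPM (+1.31 ± 0.30, limma adjusted p = 0.0337) and stayed minor, although it had 548 RPM at 21-22 h. In the third, also on that strand, the upstream promoter at 9852584-9852646 went from 15.9, 17.3 and 12.7 RPM to 6.33, 5.99 and 5.82 RPM (-1.20 ± 0.30, limma adjusted p = 0.0439). Its downstream promoter at 9852353-9852359 went from 1.13, 0.444 and 0.964 RPM to 2.19, 5.51 and 11.6 RPM (+1.81 ± 0.48, limma adjusted p = 0.0493). In all 3 genes the upstream promoter lost and the downstream one gained.

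To compare promoters of 1 gene directly, the ratio of the 2 most used TSCs, both reaching 10 RPM, was tested with limma in 890 genes. The ratio differed between the sides in 59 (6.63%), with 207 at an unadjusted p under 0.05. In 44 of the 59 only 1 of both TSCs had been called by itself, in 3 both had, and in 12 neither had. The promoter with the lower mean gained in 39 and the one with the higher mean in 20, and the upstream promoter gained in 18 of the 59. These directions were not counted over all 890 pairs, so they cannot be read as particular to the 59. The promoters of the 59 pairs were a median of 3230 bp apart, against 1607 bp over all 890. No pair was called by limma without 6-7 h, 7-8 h, 10-11 h or 11-12 h, with between 153 and 183 at an unadjusted p under 0.05, and 68 or 76 were called without 8-9 h or 9-10 h.

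The gene on chromosome 2 described above had the largest change of ratio, 3.91 ± 0.65 on the log2 scale (limma adjusted p = 0.0187). Next was a gene of chromosome 2 with promoters 98524 bp apart on the plus strand. Its main promoter at 21164372-21164491 had 558, 398 and 819 RPM and then 570.4, 514 and 349.6 RPM, with overlapping sides. The promoter far upstream at 21065848-21065916 had 6.78, 3.33 and 23.9 RPM and then 43.5, 72.1 and 143 RPM (+3.04 ± 0.59, limma adjusted p = 0.0193). Its share of the pair was 1.20% at 6-7 h and 29.0% at 11-12 h, and the change of ratio was 3.32 ± 0.63 (limma adjusted p = 0.0267).

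On XR_group8, minus strand, the promoters at 4914968-4915048 and 4913807-4914037 lie 1161 bp apart. The upstream one had 6.89, 14.0 and 15.9 RPM and then 44.3, 62.8 and 89.7 RPM, and the downstream one had 36.9, 50.1 and 34.1 RPM and then 29.1, 16.3 and 20.4 RPM. The upstream share moved from 15.7% at 6-7 h to 60.4% at 9-10 h and 81.5% at 11-12 h (change of ratio 3.22 ± 0.49, limma adjusted p = 0.0147). By itself the gain of the upstream promoter passed the test and the downstream promoter did not (limma adjusted p = 0.124). Here the upstream promoter was the one that gained, the reverse of the gene with promoters 3166 bp apart.

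A pair 588 bp apart lay on 4_group3, minus strand. The upstream promoter at 1201446-1201834 had 38.6, 155 and 276 RPM and then 402, 762 and 726 RPM, while the downstream one at 1200858-1200887 had 67.1, 157 and 125 RPM and then 54.3, 74.5 and 61.6 RPM. Only the gain passed the test by itself (limma adjusted p = 0.0384), and the sides of the downstream promoter overlapped (limma adjusted p = 0.183). Both were near equal at 7-8 h, when the upstream share was 49.7%, and at 11-12 h that share was 92.2%. In a gene of chromosome 3, minus strand, the promoter at 17272739-17272754 had 49.1, 64.1 and 48.8 RPM and then 34.6, 26.8 and 20.4 RPM. The one 7847 bp downstream, at 17264892-17264914, had no read at 6-7 h, 0.665 and 1.45 RPM next, and 3.17, 5.51 and 11.2 RPM in 9-12 h. Its share reached 35.4% of the pair at 11-12 h.

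**Figure D3:**
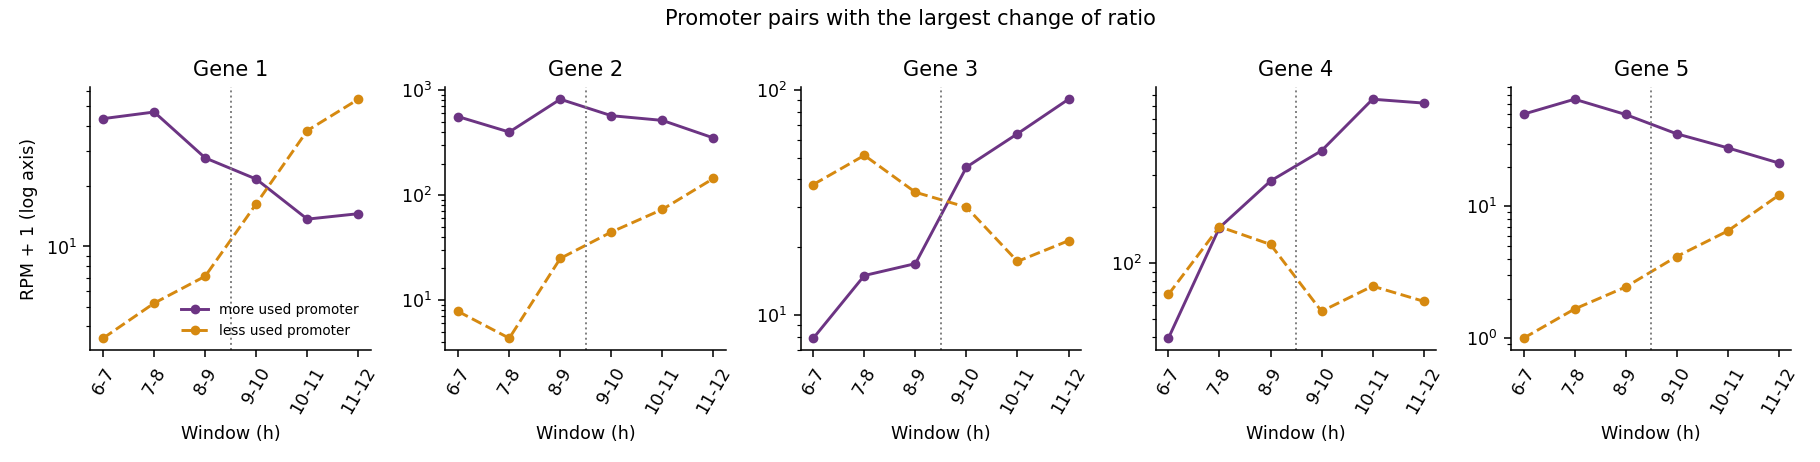
RPM + 1 on a log axis in the 6 windows for the 2 most used promoters of the 5 genes with the largest change of ratio, the solid line for the promoter with the higher mean over the windows and the dashed line for the other. Each point is 1 library and the dotted line marks 9 h. The lines cross in genes 1, 3 and 4, and in genes 2 and 5 they approach each other without crossing.

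The rest of the series shows where these promoters stood before and after. The highest of 28 windows (27-28 h left out for its few reads) fell at 12 h or later for 688 of the 831 risers (82.8%), against 39.8% of all TSCs tested, and 104 of the risers were highest within 9-12 h. By period, 12-15 h held the highest window of 237 risers, 15-18 h that of 198, 18-21 h that of 78 and 21-24 h that of 114, which leaves 61 with a high after 24 h. A further 36 were highest at 0-3 h, the largest gain described above among them. Of the 147 fallers, 80 were highest at 3-6 h and 48 at 6-9 h, 14 were highest at 0-3 h, and 4 were highest after 24 h. Of all TSCs tested, 17.7%, 10.5% and 21.5% were highest in the first 3 of these periods. The windows compared here helped to choose these TSCs, so that a high outside 6-9 h for risers, and outside 9-12 h for fallers, is partly given by the call.

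**Figure D4:**
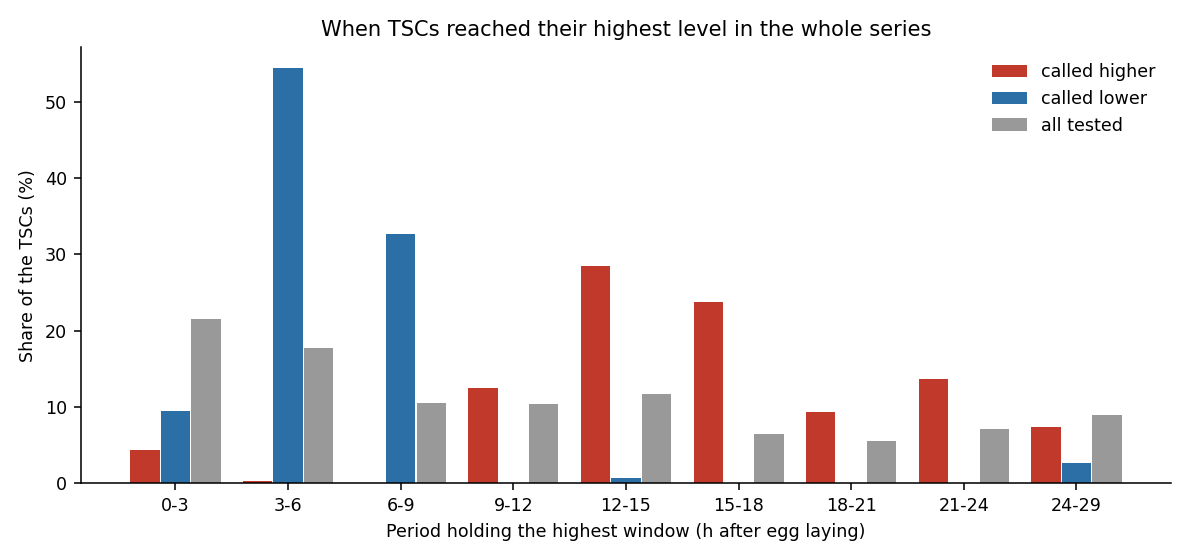
Share of TSCs, in percent, whose highest window of 28 fell in each period, for the 831 called higher in 9-12 h (red), the 147 called lower (blue) and the 17834 tested (grey). Red bars are tallest at 12-15 h (28.5%) and 15-18 h (23.8%), and the blue bars at 3-6 h (54.4%) and 6-9 h (32.7%).

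Outside the 6 windows the median riser stood at 0.612% of its highest value at 0-1 h and 2.52% at 5-6 h, and at 43.6% at 12-13 h and 56.1% at 13-14 h. It was between 51.1% and 54.0% from 14 h to 18 h and at 16.2% in the last window. The median faller rose from 6.56% of its highest value at 2-3 h through 19.5% and 54.9% to 85.8% at 5-6 h, and it was down to 6.09% at 12-13 h and 3.02% at 14-15 h. In these unused windows the gains were thus kept for several hours beyond 12 h, and the median faller was low at 0-3 h and high just before 6 h.

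**Figure D5:**
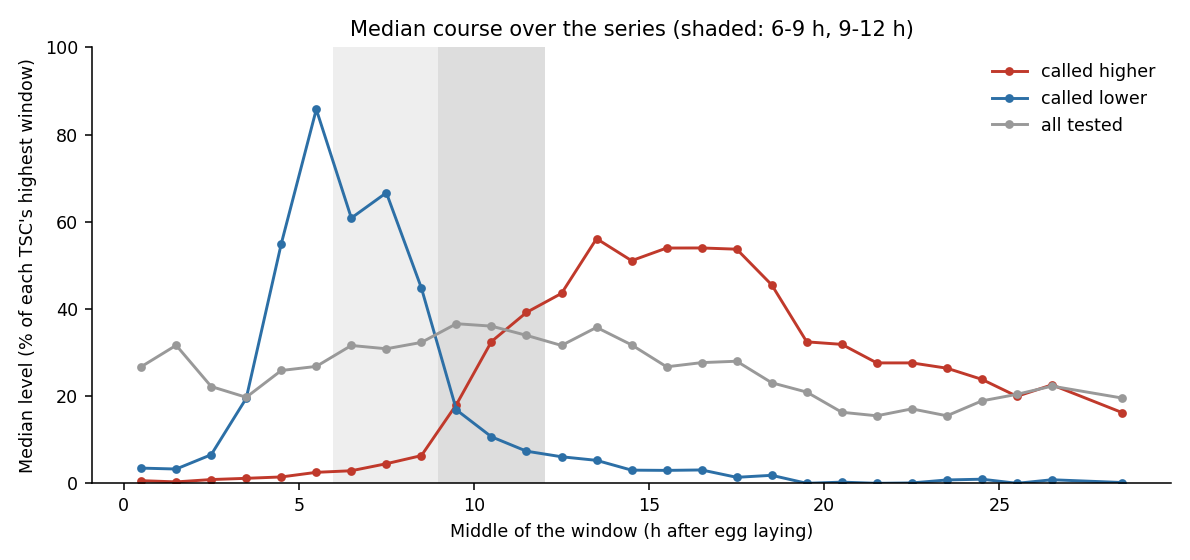
Median level over TSCs in each window, as a percent of the highest window of each TSC, against the middle of the window in hours after egg laying, for TSCs called higher (red), called lower (blue) and all tested (grey). Shading marks 6-9 h and 9-12 h. The red line climbs from 2.52% at 5-6 h to 56.1% at 13-14 h, and the blue line has its top of 85.8% at 5-6 h.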

How the data were processed

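RNA of staged whole embryos was converted into RAMPAGE libraries. The authors aligned reads with STAR to FlyBase r2.9, called TSCs on the reads of all windows together, so that deeper windows weigh more in which TSCs exist, removed those over ribosomal DNA and deposited RPM values for 26066 TSCs and 8466 genes; the STAR version is not given in the sources used here. Each window sums to 1000000 RPM over TSCs and to 78.7% to 80.6% of that over genes. A table of smoothed gene scores and the TSC score were not used.

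Here log2(RPM + 1) was tested with limma 3.58.1 (R 4.3.3, trend) for features with a maximum of at least 1 RPM over the 6 windows, adjusted over all of them (Benjamini-Hochberg, 0.05). Whole reads recovered from the RPM values (100% of nonzero values within 0.1 of a whole number) were used for depth and for edgeR 4.0.16 and DESeq2 1.42.0 as alternatives. The functions were also run on simulated counts with independent windows and no course within a side. That setting differs from these windows, so the run checks the code and not the p-values of this design. The 6 windows enter the fit with no covariate. Genes were to be named as the 10 largest called changes each way with at least 10 RPM and no overlap, plus the 5 largest unassigned TSCs each way and genes with promoters in opposite directions. None of the 8466 gene identifiers was found in the name table, so the gene lists were not applied, only the first 2 genes each way are named, and promoters are given by 1-based position. The same rule applied to TSCs, the promoter ratio test and its 5 examples were chosen after seeing the data. The comparison, its lists and its tests were chosen with earlier results of these data known. Of the gene identifiers, 6633 were linked to TSCs by identical reads.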

Additional observations from a re-analysis of the deposited data

How the results depend on the processing

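No paired analysis was possible because the labels give no replicate numbers and each window is a single library. Among TSCs (978 called), counts were 546 with a pseudocount of 0.1 RPM, 785 with 5 RPM, 341 with only features that reach 10 RPM and 537 with no filter. There were 331 with edgeR and 1293 with DESeq2, the latter with 881 higher and 412 lower. Fitting all 3-hour groups together gave 1127, and leaving out both windows at the boundary gave 1215. There were 2200 with the start hour as a linear term and 646 with thinned reads, and leaving out a window gave 3 to 1418. Counts for genes (351 called) were 229 with a pseudocount of 0.1 RPM, 177 with only features that reach 10 RPM, 175 with edgeR, 723 with DESeq2, 1062 with the linear hour, 611 without the windows at the boundary and 209 with thinned reads, and 0 to 653 with a window left out. Genes with opposite promoters (6) numbered 2 with a pseudocount of 0.1 RPM, 3 with 5 RPM, 1 with only features that reach 10 RPM, 1 with no filter, 3 with upper-quartile scaling, 1 with edgeR, 15 with DESeq2, 3 with all 3-hour groups fitted together, 18 with the linear hour and 2 with thinned reads, and 0 to 9 with a window left out. Promoter pairs (59) numbered 28 with a pseudocount of 0.1 RPM and 0 to 76 with a window left out. The cause of these shifts was not tested. Thinning and the promoter pair test were added after seeing the data.

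None of the 64 genes and TSCs chosen for naming changed direction under any alternative run. They were chosen from these same data by call, size of change or lack of overlap. A kept direction is thus largely given by the choice. Some of the genes and TSCs also share the same reads. Of the 60 that were called, 57 lost their call without 11-12 h and 54 without 10-11 h. Without 6-7 h 32 lost the call, without 7-8 h 32, without 8-9 h 7 and without 9-10 h 3. Under edgeR 24 lost it and under TMM scaling 6. Depth limits the 11-12 h library most, where 1 read is 0.485 RPM. The windows of a side differ in age, so the spread they give is not that of repeated collections.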
